A study of Mus musculus with 16 samples.

Results

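The miR-15, miR-16, miR-322 and miR-503 family was followed through 6 populations of mouse bone marrow stem and progenitor cells. Its members here were mmu-miR-15a, mmu-miR-15b, mmu-miR-16, mmu-miR-195, mmu-miR-322 and mmu-miR-503, taken by name from the array's probe list, and they were 6 of the 577 miRs on the array and 12 of its 1712 probes. MiR levels were read on 16 one-colour Agilent mouse arrays, 1 sorted population per array. The HSC subsets were long-term hematopoietic stem cells (LT-HSC, 1 array), short-term hematopoietic stem cells (ST-HSC, 3 arrays) and multipotent progenitors (MPP, 3 arrays). The myeloid progenitors, with 3 arrays per population, were CMP (common myeloid progenitors), GMP (their granulocyte-monocyte branch) and MEP (their megakaryocyte-erythroid branch). All came from female C57Bl/6 mice aged 6 to 8 weeks, untreated as far as the labels and methods say, with marrow of 10 to 20 mice pooled for a sample. Every population had been depleted of cells with lineage antigens and enriched for c-kit. The HSC subsets were collected in one kind of sort and the myeloid progenitors in another, so sort and population class go together.

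A miR guides the silencing machinery to messenger RNAs mainly through its seed, the short stretch near its 5′ end. The miR-15 and miR-16 family is best known for holding back the cell cycle, with cyclins, cyclin-dependent kinases and the survival factor Bcl2 among its known targets. Its members are made from several places in the genome: miR-15a with a copy of miR-16, miR-15b with the other copy of miR-16, miR-195 with miR-497, and miR-322 with miR-503 on the X chromosome. In blood, miR-15 and miR-16 are broadly present, and miR-503 and miR-322 belong to a cluster that also makes miR-351, miR-450 and miR-542.

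The mature sequences are printed because the seed defines the family and because the members differ downstream of it. They are RefSeq sequences of the GRCm38.p6 assembly, 5′ to 3′, with the seed (bases 2 to 8) in capitals.
mmu-miR-15a: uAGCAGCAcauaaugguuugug
mmu-miR-15b: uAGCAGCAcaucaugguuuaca
mmu-miR-16: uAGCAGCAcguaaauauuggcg
mmu-miR-195: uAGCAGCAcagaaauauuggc
mmu-miR-322: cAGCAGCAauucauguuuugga
mmu-miR-503: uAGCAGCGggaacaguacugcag

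All of these but miR-503 shared the seed AGCAGCA, and miR-503 differed by A8G, counted from base 1 at the 5′ end of the mature miR with the base of miR-16 first. The closest pair was miR-16 and miR-195, identical at 19 of 21 bases, with G10A and U11G the only changes from miR-16 to miR-195. Next came miR-15a and miR-15b, identical at 18 of 22 bases. MiR-322 and miR-503, although neighbours in the genome, matched at 11 of 22 bases, as few as any pair compared over that length. Relatives outside the family help to place it. MiR-497, the partner of miR-195, carried the same seed at the same place, whereas miR-103 and miR-107 held those 7 bases from base 1, so that their own seed was GCAGCAU.
mmu-miR-497: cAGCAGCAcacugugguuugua
mmu-miR-103: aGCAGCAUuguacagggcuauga
mmu-miR-107: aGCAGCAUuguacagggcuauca

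The array design places its probes on the mm9 build. The brighter probe of miR-15a was placed at chr14:62250912-62250933 and that of miR-16 at chr14:62250773-62250790, while that of miR-15b was at chr3:68813699-68813718. That of miR-195 was at chr11:70048566-70048584, that of miR-322 at chrX:50407483-50407504 and that of miR-503 at chrX:50407204-50407219. In the RefSeq gene table, Mir15a and Mir16-1 lay within the bounds of Dleu2 and Mir15b and Mir16-2 within those of Smc4, a condensin subunit gene. Mir322 and Mir503 lay within the bounds of the non-coding gene C430049B03Rik. Since both copies of miR-16 make the same mature sequence, the array cannot tell the chromosome 14 copy from the chromosome 3 copy.

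Levels are given as log2 signal after quantile normalization across the 16 arrays, with a floor at 1.62, and the scanner software had to flag a share of at least 0.5 of a probe's spots as well above background for the probe to count so on an array. A miR was tested if a probe met this on at least 3 arrays, which 237 miRs and all 6 members did, and it was called at an adjusted p under 0.05 (limma, Benjamini-Hochberg over the 237 miRs). The summed signal was lowest on the LT-HSC array, at 34810 units, where 140 of the tested miRs were well above background, fewer than on any other array. The other arrays had 66237 to 335060 units. Marker miRs of the cell types followed the labels for MEP and GMP. The erythroid miR-451 and miR-144 averaged 12.12 and 9.25 in MEP against 5.37 and 1.91 in GMP, and miR-223, a granulocyte-monocyte miR, averaged 14.04 in GMP against 9.61 in MEP. The stroma and liver markers miR-143, miR-145, miR-214 and miR-122 were well above background on 0 arrays. The muscle markers miR-1, miR-133a, miR-133b and miR-206 were each so on 1 MEP array, with highest levels of 7.12, 6.63, 7.29 and 4.05, and the neuronal miR-124 on 2 CMP arrays (mean 4.40) and miR-9 on 1 (highest 4.15). Their part in the MEP and CMP results was not tested.

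The arrays sat on 3 slides, and the slides did not hold the populations evenly. The myeloid replicates 1 and 2 were on slide 1. The myeloid replicates 3 shared slide 2 with LT-HSC 1 and ST-HSC 1. All of MPP was on slide 3, as were ST-HSC 2 and ST-HSC 3. By the brighter probe of each, arrays of slide 3 stood apart for 4 members whatever their population. On its 5 arrays miR-16 read 8.80 to 9.06, below the 10.48 to 11.73 of the other 11 arrays, and miR-15a read 8.68 to 8.88 against 9.31 to 10.31. For miR-195 the 5 arrays read 7.37 to 7.75 against 4.68 to 6.32, and for miR-15b 11.40 to 11.56 against 10.36 to 11.21. The dimmer probe of miR-15b did not show this step. It read 10.48 to 10.61 on slide 3, within the 9.88 to 10.77 of the other 11 arrays. ST-HSC was the only population of the HSC subsets on more than 1 slide, and ST-HSC 1 exceeded the mean of ST-HSC 2 and 3 by 2.20 for miR-16 and 1.59 for miR-15a, and fell by 1.43 on the log2 scale for miR-195 relative to them. Over all 237 tested miRs the median size of that difference was 0.773, and it was over 1 for 38.0% of them. MiR-322 and miR-503 on slide 3 lay within the range of the other slides. Comparisons of HSC subsets with myeloid progenitors are therefore given for all arrays, then blocked on slide and on slide 2 alone, while CMP, GMP and MEP have the same number of arrays on slides 1 and 2.

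**Figure D1:**
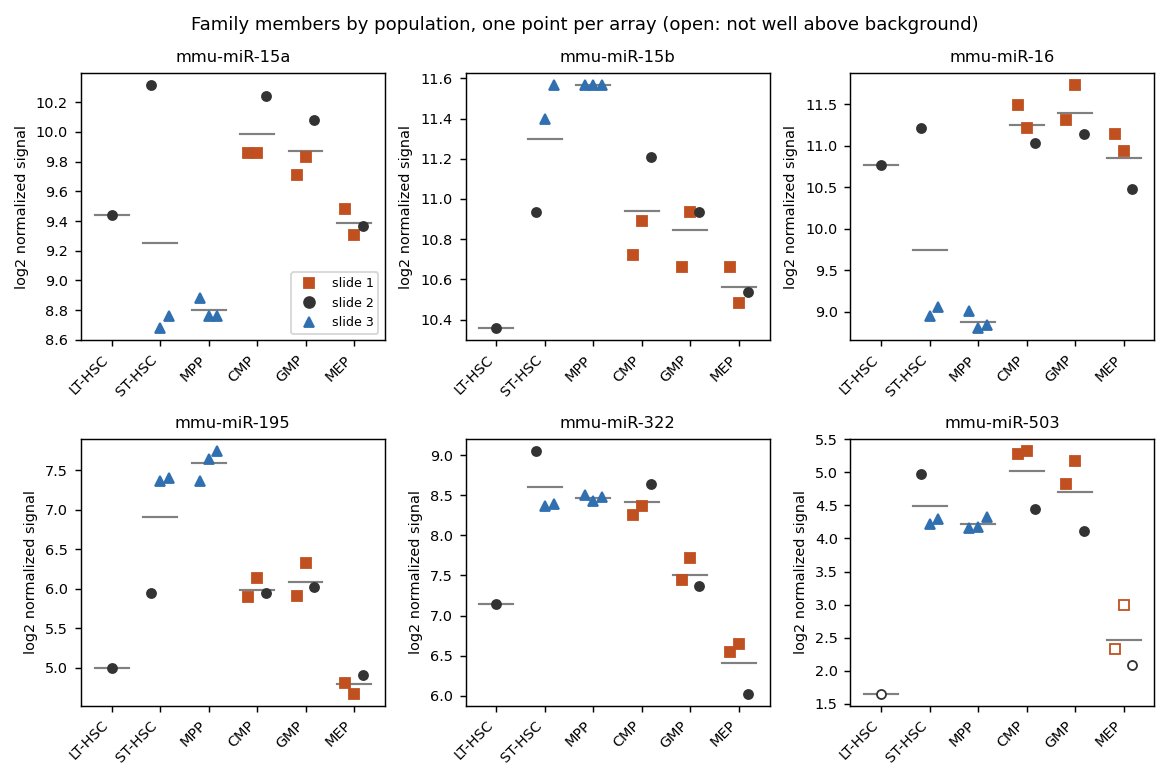
Log2 normalized signal (vertical axis) of each member in the 6 populations (horizontal axis), 1 point per array, coloured and shaped by slide, with a grey line at the population mean and open symbols where the probe was not well above background. The 5 slide 3 arrays sit together for miR-15a, miR-15b, miR-16 and miR-195, and miR-322 and miR-503 are lowest in MEP and on the LT-HSC array.

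The 3 broad members were well above background on all 16 arrays. MiR-16 averaged 11.39 ± 0.30 (SD, n = 3) in GMP, 11.24 ± 0.23 in CMP and 10.85 ± 0.34 in MEP. Its LT-HSC array read 10.77, ST-HSC arrays read 11.21, 8.95 and 9.06, and MPP arrays read 9.004, 8.80 and 8.83. By array the myeloid values were 11.49, 11.21 and 11.03 in CMP, 11.31, 11.73 and 11.15 in GMP, and 11.15, 10.93 and 10.48 in MEP. In this order of means, from GMP to MPP, each population overlapped the next in its array values.

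MiR-15a, made from the same chromosome 14 transcript as 1 copy of miR-16, averaged 9.98 ± 0.22 in CMP, 9.87 ± 0.19 in GMP and 9.38 ± 0.086 in MEP (SD, n = 3 each). It read 9.44 on the LT-HSC array, 10.31, 8.68 and 8.76 in ST-HSC, and 8.88, 8.76 and 8.76 in MPP. Its myeloid arrays read 9.85, 9.85 and 10.24 in CMP, 9.71, 9.83 and 10.08 in GMP, and 9.48, 9.31 and 9.37 in MEP. The CMP and GMP values did not overlap those of LT-HSC and MEP, but the step from ST-HSC 1 to ST-HSC 2 was larger than any step between population means. By its brighter probe miR-15b went the other way across slides. It read 10.36 on the LT-HSC array, 10.93, 11.40 and 11.56 in ST-HSC and 11.56 on each MPP array, and averaged 10.94 ± 0.25 in CMP, 10.84 ± 0.155 in GMP and 10.56 ± 0.093 in MEP. Its 2 probes were less alike than those of the other broad members, with a Pearson r of 0.64 across the 16 arrays against 0.99 for miR-15a and 0.99 for miR-16.

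MiR-195 was well above background on all 16 arrays, but by 1 of its 2 probes only, since the other passed on 3 arrays. By the brighter probe it read 5.89, 6.13 and 5.95 in CMP, 5.90, 6.32 and 6.03 in GMP, and 4.81, 4.68 and 4.91 in MEP. It read 4.999 on the LT-HSC array, 5.95, 7.37 and 7.40 in ST-HSC and 7.37, 7.65 and 7.75 in MPP. MEP was lowest, below the LT-HSC array and all others. MiR-497, made from the same locus, was well above background on 0 of 16 arrays.

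MiR-322 read 8.26, 8.37 and 8.65 in CMP, 7.44, 7.71 and 7.37 in GMP, and 6.55, 6.65 and 6.03 in MEP. The 3 myeloid populations did not overlap. In the HSC subsets it read 9.06, 8.37 and 8.40 in ST-HSC and 8.51, 8.43 and 8.47 in MPP, close to CMP, and 7.14 on the LT-HSC array. ST-HSC, MPP and CMP overlapped in that order, and GMP, LT-HSC and MEP then followed without overlap.

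MiR-503 was well above background on 12 of 16 arrays, with all 3 MEP arrays and the LT-HSC array failing. It read 5.27, 5.33 and 4.44 in CMP, 4.82, 5.17 and 4.11 in GMP, 4.97, 4.21 and 4.29 in ST-HSC and 4.16, 4.17 and 4.32 in MPP. The MEP arrays read 2.33, 3.00 and 2.09 and the LT-HSC array 1.66, near the floor. CMP, GMP, ST-HSC and MPP overlapped in that order and MEP lay below all of them.

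Across the 6 populations, 5 of the 6 members differed by the moderated F-test, against 82.7% of all tested miRs, so a call in this test was the rule rather than the exception on these arrays. The adjusted p was 1.33e-05 for miR-322, 3.84e-05 for miR-503, 5.06e-05 for miR-195, 0.00153 for miR-16 and 0.00301 for miR-15b. For miR-15a it was 0.0522, but with slide as a block miR-15a was called (adjusted p 0.00138). It was called too with arrays scaled on the probes that passed detection throughout, on the 75th percentile of all probes or not scaled (0.0222, 0.00169 and 0.00804). Without the 5 arrays of slide 3, miR-15b and miR-16 were not called, at adjusted p of 0.175 and 0.253, and miR-15a was, at 0.0314. MiR-15a was also called when LT-HSC 1, ST-HSC 1 or ST-HSC 2 was left out (adjusted p 0.0338, 6.23e-05 and 0.0426). MiR-195, miR-322 and miR-503 were called either way.

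Among the myeloid progenitors, MEP had less miR-195, miR-322 and miR-503 than either CMP or GMP. From GMP to MEP miR-322 fell from a mean of 7.51 to 6.41, a log2 difference of 1.10 (95% interval 0.59 to 1.61, adjusted p 0.00119, limma), and miR-195 from 6.09 to 4.80, a difference of 1.29 (0.60 to 1.98, adjusted p 0.0033). MiR-503 was at least 2.06-fold higher in GMP than in MEP, where all 3 arrays failed detection (means 4.70 and 2.47, adjusted p 8.88e-05). None of the 3 overlapped between GMP and MEP, and miR-15a, not called, did not overlap either. Thus 3 of 6 members were called higher in GMP, where 40.9% of all tested miRs were called higher and 21.9% lower, and the median difference was 0.82 over the members and 0.44 over all tested miRs. MiR-15a, miR-15b and miR-16 were not called, with differences of 0.49, 0.28 and 0.54 and intervals of -0.25 to 1.23, -0.16 to 0.72 and -0.46 to 1.54. With slide as a block miR-15a and miR-16 were called too, at adjusted p of 0.00252 and 0.0041, and so they were without ST-HSC 1 (0.016 and 0.0375). Within slide 1, with 2 arrays a side, miR-195 and miR-322 differed by 1.37 and 0.98 (adjusted p 0.0102 for both, limma). MiR-503 was called higher there too (adjusted p 0.00941, limma), where 171 of all 237 tested miRs were called in either direction. Within slide 2, with 1 array a side, miR-195 and miR-322 differed by 1.12 and 1.34. With arrays scaled on the probes that passed detection throughout, miR-195 differed by 0.50 and was not called (adjusted p 0.234). Fewer cells making a miR and less of it per cell cannot be told apart in RNA of a whole population.

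The difference between CMP and MEP was larger for miR-322. It fell from 8.42 to 6.41, a log2 difference of 2.02 (95% interval 1.51 to 2.52, adjusted p 8.69e-06). MiR-195 was higher in CMP by 1.19 (0.50 to 1.88, adjusted p 0.00501), and miR-503 was at least 2.56-fold higher (means 5.01 and 2.47, adjusted p 3.27e-05). On CMP 1 and CMP 2 miR-503 gave 53.9 and 59.5 units before normalization, where the 95th percentile of negative controls was 30.6 and 44.3. On CMP 3 these were 9.32 and 2.21. On MEP 1 and MEP 2 that percentile was 12.3 and 9.94, so the bound for miR-503 compares arrays of unlike background. MiR-195, miR-322 and miR-503 did not overlap between CMP and MEP, and neither did miR-15a or miR-15b. Again 3 of 6 members were called higher, against 43.9% of tested miRs called higher and 20.7% lower, with a median of 0.90 over the members and 0.55 over all tested. The 3 broad members differed by 0.39 to 0.60 and were not called, although with slide as a block all of them were (adjusted p 5.57e-04 to 0.0235). Without ST-HSC 1 miR-15a and miR-15b were called, at 0.00465 and 0.0496. Within slide 1 miR-195 and miR-322 differed by 1.27 and 1.71, and all 3 with miR-503 were called, where 165 of all 237 tested miRs were called. Within slide 2 miR-195 and miR-322 differed by 1.04 and 2.62. Scaling the arrays on the probes well above background everywhere, in place of quantile normalization, brought miR-195 to 0.48 and it was then not called (adjusted p 0.222).

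Between CMP and GMP miR-322 alone was called. It was higher in CMP by 0.92 (95% interval 0.41 to 1.42, adjusted p 0.0341) with no overlap, where 4.64% of tested miRs were called higher and 2.95% lower. The difference was 0.74 within slide 1, with 2 arrays a side, and 1.28 within slide 2, with 1 array a side. Its call was lost in 8 of 16 fits that each left out 1 array, those without any 1 of the MPP or CMP arrays, GMP 1 or GMP 3, with adjusted p of 0.0551 to 0.106. MiR-503, encoded beside miR-322, differed between CMP and GMP by 0.31 (-0.42 to 1.05) and was not called. The other 4 members differed by -0.15 to 0.11.

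**Figure D2:**
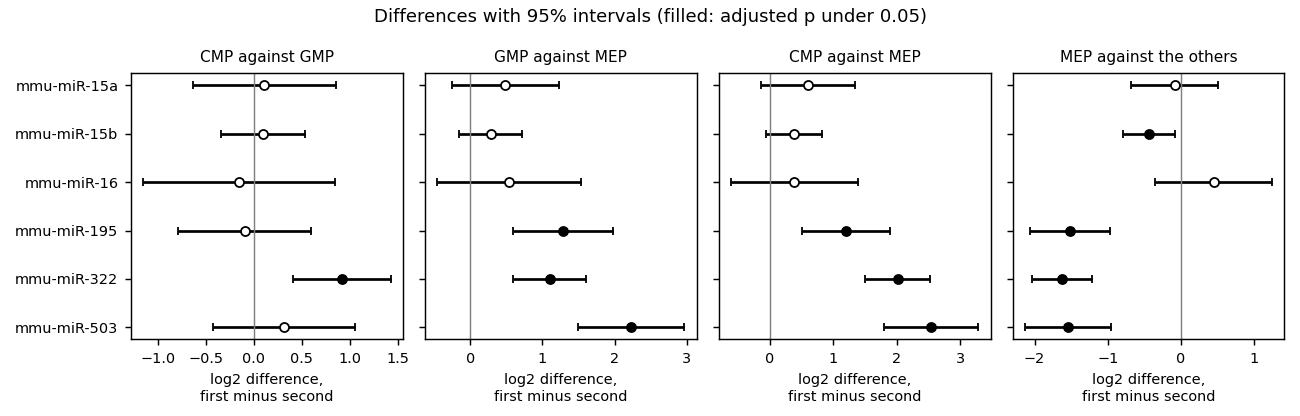
Log2 difference of each member (rows) in 4 comparisons (panels), first population minus second on the horizontal axis, with 95% intervals from the limma fit and filled points at an adjusted p under 0.05. MiR-195, miR-322 and miR-503 are called against MEP in all 3 panels that include it, miR-322 also between CMP and GMP, and for miR-503 the fitted values against MEP are not sizes, since its probe was not well above background there.

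Set against the mean of the other 5 populations, MEP was lower for 4 of 6 members and higher for none that passed the test, beside 44.3% of tested miRs called lower and 24.1% called higher. MiR-322 averaged 6.41 in MEP against 8.03, a difference of -1.62 (95% interval -2.03 to -1.21, adjusted p 6.25e-06), and miR-195 averaged 4.80 against 6.31, a difference of -1.52 (-2.07 to -0.96, adjusted p 0.000163). Neither overlapped any other array. MiR-503 was called lower (adjusted p 0.00024, limma), and at least 1.65-fold lower than the plain mean of the other 13 arrays. That mean gives the single LT-HSC array less weight than the mean of populations does. MiR-503 overlapped, because the LT-HSC array was lower still. MiR-15b was lower by a difference of -0.44 (adjusted p 0.0297), with overlap. That call did not hold without slide 3 (-0.21, adjusted p 0.268), blocked on slide (-0.19, 0.194) or without MEP 2 or MEP 3 (adjusted p 0.102 and 0.0605). Among myeloid arrays only, MEP against CMP and GMP, miR-195 and miR-322 differed by -1.24 and -1.56, and all 3 with miR-503 were called, at adjusted p of 0.000143, 0.000163 and 3.28e-04. Within slide 2, where MEP had 1 array, the differences were -0.82 and -2.03 and none of the 3 was called. MiR-15a, not called with all arrays (-0.08), was lower in MEP when blocked on slide (-0.53, adjusted p 0.0016), within slide 1 (-0.42, 0.0257), without slide 3 (-0.52, 0.0176) and on myeloid arrays only (-0.54, 0.0133). Within slide 1, 151 of all 237 tested miRs were called in this contrast. MiR-16 turned from 0.45 to -0.45 when blocked on slide and was then called (adjusted p 0.0121). The median over the members was -0.98 and that over all tested miRs -0.47.

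GMP against the other 5 populations gave 2 calls, both higher, beside 29.1% of tested miRs called higher and 19% called lower. MiR-503 averaged 4.70 against 3.57 (adjusted p 0.00481), where the mean of the others takes in LT-HSC and MEP, both not well above background, so that no size is given, and miR-16 averaged 11.39 against 10.30, a difference of 1.10 (0.30 to 1.90, adjusted p 0.0278). Both overlapped other arrays. Against ST-HSC, MPP and CMP only, the populations in which it was measured, miR-503 differed by 0.13 and was not called (adjusted p 0.748), in a fit chosen after seeing the data. Nor was it called when LT-HSC 1 alone was left out (adjusted p 0.0704). The miR-16 difference was 0.38 without slide 3 (adjusted p 0.178) and 0.20 when blocked on slide (adjusted p 0.266), and leaving out GMP 1 or GMP 2 also lost its call (adjusted p 0.0715 and 0.136). MiR-195 was not called with all arrays (0.03, adjusted p 0.919) but was higher in GMP when blocked on slide (0.51, adjusted p 0.0141). MiR-322, not called with all arrays (-0.30), was then lower in GMP (-0.59, adjusted p 0.013), as it was against ST-HSC, MPP and CMP only (-0.99, adjusted p 0.00131).

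The other miRs of the X-linked cluster were read as a list of 8 names, of which 7 were on the array and 6 were tested. In MEP against the other populations 5 of the 6 were called lower and 1 higher, beside the 44.3% and 24.1% of all tested miRs given above. MiR-450a-5p read 3.11, 3.76 and 2.76 in MEP, not well above background, and 5.18 to 7.48 on the other 13 arrays. It was called lower in MEP (adjusted p 1.15e-06, limma), at least 7.23-fold below the plain mean of those 13 arrays. MiR-542-3p was at the floor on the 3 MEP arrays and read 3.04 to 5.45 elsewhere (adjusted p 2.71e-07, limma). It was at least 1.78-fold below the plain mean of the 13 arrays, and miR-542-5p at least 1.77-fold (adjusted p 6.59e-05, limma). MiR-450b-3p and miR-450b-5p were also called (adjusted p 0.000122 and 0.00514) but were too dim for a bound. MiR-450a-3p, the other arm of the miR-450a hairpin, was called higher in MEP by 1.06 (adjusted p 0.0414), and it was well above background on 3 of 16 arrays. MiR-351 was well above background on 1 array and was not tested.

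The same 5 neighbours were called higher in GMP than in MEP and higher in CMP than in MEP. Of all tested miRs, 40.9% and 43.9% were called higher and 21.9% and 20.7% lower. MiR-450a-3p went the other way between CMP and MEP, called lower in CMP by -1.73 (adjusted p 0.0111, limma). It was well above background on 0 of 3 CMP and 1 of 3 MEP arrays. MiR-450b-3p and miR-450b-5p were well above background on 0 of 3 CMP and 0 of 3 MEP arrays, so their calls between CMP and MEP compare signals near background. MiR-542-3p and miR-542-5p passed on 1 of 3 CMP arrays each. In GMP, miR-450b-5p and miR-542-5p passed on 1 of 3 arrays each and miR-450b-3p on 2. In GMP miR-450a-5p read 6.70, 6.79 and 5.88 and miR-542-3p 4.32, 4.49 and 4.24, above MEP on both slides. Between CMP and GMP none of the 6 was called, including miR-450a-5p (difference 0.23, adjusted p 0.885) and miR-542-5p (0.61, adjusted p 0.233), whereas miR-322 was. These comparisons share arrays and are not separate observations of MEP.

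**Figure D3:**
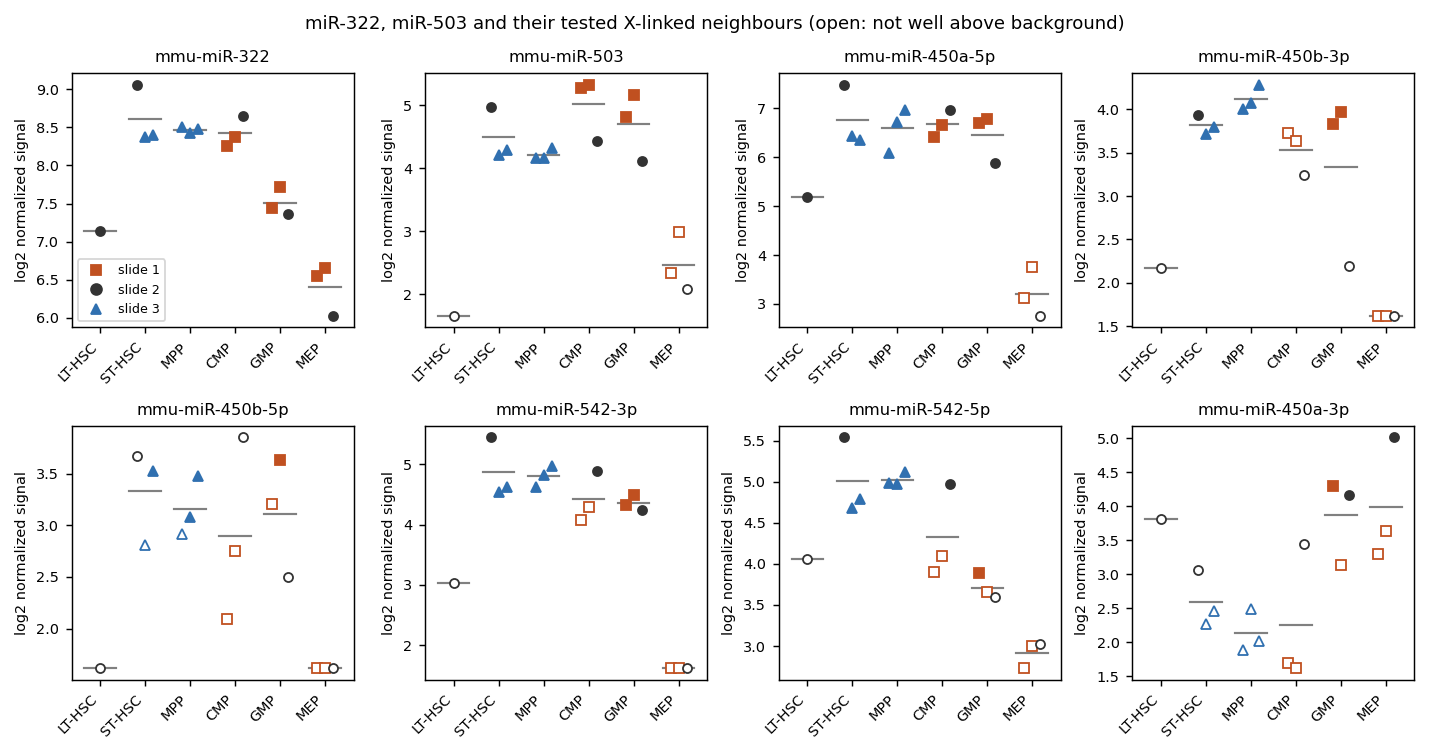
Log2 normalized signal (vertical axis) of miR-322, miR-503 and the 6 tested neighbours of their cluster in each population (horizontal axis), 1 point per array by slide, grey lines at the means and open symbols where not well above background. All but miR-450a-3p have their 3 MEP arrays below the ST-HSC, MPP, CMP and GMP arrays.

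HSC subsets against myeloid progenitors was the contrast behind the study's list of HSC miRs. In it 5 of 6 members were called, 2 higher and 3 lower in HSC subsets, beside 25.3% of tested miRs called higher and 22.8% called lower. Array values of the classes overlapped for every member. MiR-195 was higher in HSC subsets, with means of 6.50 and 5.62 and a difference of 0.87 (95% interval 0.41 to 1.33, adjusted p 0.00472), and miR-322 was higher by 0.63 (0.29 to 0.97, adjusted p 0.00547). MiR-16 was lower, with means of 9.79 and 11.16 and a difference of -1.37 (-2.03 to -0.70, adjusted p 0.00273), and miR-15a by -0.58 (adjusted p 0.0498) and miR-503 by -0.61 (adjusted p 0.0439), which takes in the LT-HSC and MEP arrays on which it failed detection. MiR-15b was 0.29 higher and was not called (-0.0015 to 0.59, adjusted p 0.0923). MiR-16 and miR-195, which differ at 2 bases in the sequences above, thus had opposite signs.

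These differences moved with slide 3. With slide as a block, miR-16 differed by 0.13 (adjusted p 0.573), miR-15a by 0.15 (0.412), miR-195 by 0.07 (0.759) and miR-503 by 0.31 (0.242), and miR-322 alone was called, at 1.10 (adjusted p 0.00113). Without the 5 arrays of slide 3, where LT-HSC 1 and ST-HSC 1 stood for the HSC subsets, the differences were -0.18 for miR-16, 0.13 for miR-15a and -0.15 for miR-195, none called, and 0.65 for miR-322, which was (adjusted p 0.0491). Within slide 2, with 2 arrays against 3, no member was called, and the differences were 0.10 for miR-16, -0.02 for miR-15a, -0.15 for miR-195, -0.25 for miR-15b, 0.75 for miR-322 and -0.23 for miR-503. On that slide 0 of 237 miRs were called and 11 had an unadjusted p under 0.05 (limma). MPP was on slide 3 only, so for MPP slide and population cannot be told apart. Nor was miR-322 free of the scaling, since its difference was 0.16 with arrays scaled on the 75th percentile of all probes and -0.35 with no scaling, not called in either. MiR-503 depended on the LT-HSC array, without which it was 0.29 higher in HSC subsets and not called (adjusted p 0.276). Of the 16 fits that each left out 1 array, miR-503 was called in 4, those without ST-HSC 1, CMP 3, GMP 3 or MEP 3, and miR-15a in 2, those without LT-HSC 1 or ST-HSC 1. MiR-15b was called higher without LT-HSC 1 (0.65) or ST-HSC 1 (0.35). MiR-16, miR-195 and miR-322 were called in all 16, and without LT-HSC 1 the differences of miR-195 and miR-322 were 1.62 and 1.09. The dimmer probe of miR-15b gave -0.12 in place of 0.29.

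**Figure D4:**
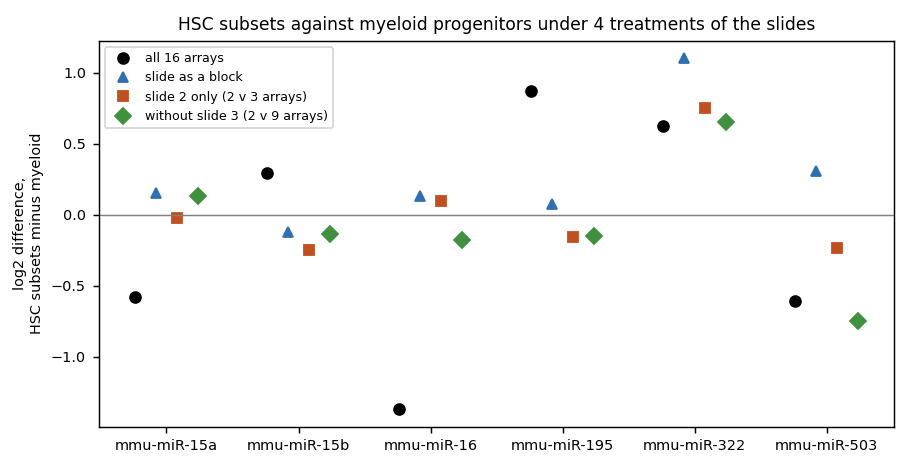
Log2 difference of each member (horizontal axis) between HSC subsets and myeloid progenitors (vertical axis), with all 16 arrays, with slide as a block, within slide 2 and without slide 3. The all-array values of miR-15a, miR-16 and miR-195 lie away from 0 and the other 3 treatments bring them to between -0.18 and 0.15, while miR-322 stays at 0.63 to 1.10.

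Ratios of 2 members within each array were compared between the 7 HSC subset and 9 myeloid arrays by a two-sided exact permutation test over 11440 splits, in 4 ratios. The log2 ratio of miR-322 to miR-16 averaged -1.18 ± 1.25 in HSC subsets and -3.72 ± 0.75 in myeloid progenitors (SD), a difference of 2.54 (p = 0.000612 by the exact permutation test, 0.00245 after Benjamini-Hochberg adjustment over the 4). That of miR-195 to miR-16 differed by 2.95 (p = 0.00271, adjusted 0.00472, exact permutation), that of miR-15b to miR-15a by 1.16 (p = 0.00472, adjusted 0.00472, exact permutation) and that of miR-503 to miR-322 by -0.99 (p = 0.00472, adjusted 0.00472, exact permutation). In the last, miR-503 was not well above background on LT-HSC 1 and the MEP arrays, and with those arrays left out the difference was -1.08 (p = 0.0108, exact permutation). Within slide 2 the differences were 0.66, -0.25, -0.23 and -0.99 in the same order, with exact permutation p of 0.5, 0.5, 0.4 and 0.3, where 2 arrays against 3 cannot reach p = 0.05. Without slide 3 they were 0.83, 0.03, -0.26 and -1.40, with exact permutation p of 0.182, 1, 0.0545 and 0.0545. Among the myeloid arrays, the ratio of miR-322 to miR-16 was -2.39 to -3.23 in CMP, -3.78 to -4.01 in GMP and -4.28 to -4.60 in MEP, with no overlap.

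**Figure D5:**
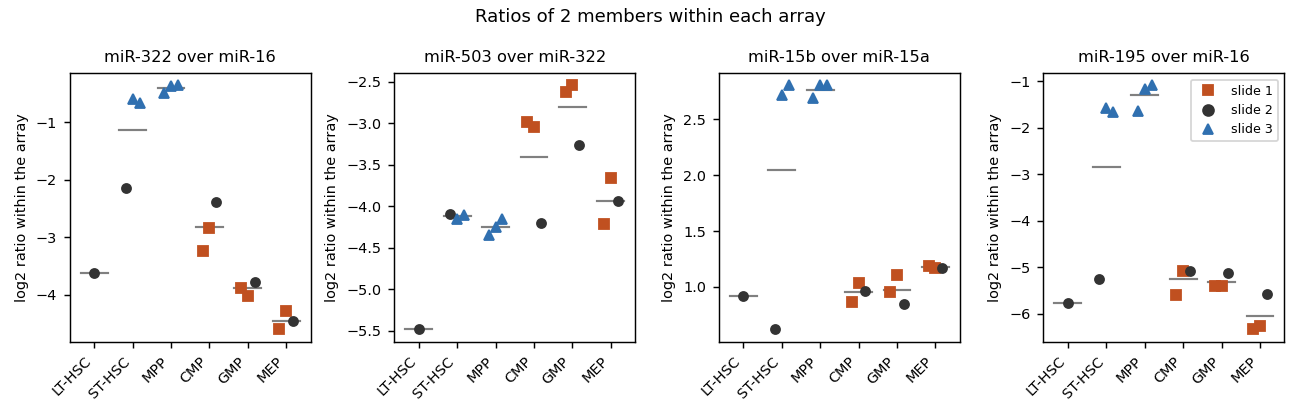
Log2 ratio of 2 members within each array (vertical axis) by population (horizontal axis), coloured and shaped by slide, with grey lines at the means. For miR-322 over miR-16, miR-15b over miR-15a and miR-195 over miR-16 the 5 slide 3 arrays lie above all the rest, ST-HSC 1 included.

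No member was called between ST-HSC and MPP, where 1.27% of tested miRs were called higher in ST-HSC and 3.38% lower. Intervals were widest for miR-16, at a difference of 0.86 (95% interval -0.14 to 1.86), and narrowest for miR-15b, at -0.27 (-0.71 to 0.17). On slide 3, which held 2 ST-HSC and 3 MPP arrays, the members differed by -0.20 for miR-195 to 0.13 for miR-16. There 0 of the 6 had an unadjusted p under 0.05 (limma), beside 98 of all 237 tested miRs, of which 59 were called.

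The single LT-HSC array was called lower than ST-HSC and MPP for 4 of 6 members, beside 21.1% of tested miRs called lower and 8.02% called higher. It has no replicate, so the intervals and p-values take their spread from the other populations and assume that LT-HSC varies like them. MiR-322 differed by -1.39 (95% interval -2.07 to -0.72, adjusted p 0.00424), miR-195 by -2.25 (-3.16 to -1.33, adjusted p 0.00158) and miR-15b by -1.07 (-1.66 to -0.49, adjusted p 0.00856). MiR-503, whose LT-HSC signal did not clear background, was called lower (means 1.66 and 4.35, adjusted p 0.000768), too dim for a bound above 1. With arrays scaled on the probes that passed detection throughout, miR-322 and miR-195 differed by -0.56 and -0.97 and were not called (adjusted p 0.0969 and 0.1), and miR-16 was called higher (1.51, adjusted p 0.0437). Against ST-HSC 1, on the same slide, LT-HSC 1 was lower by a log2 difference of -1.91 for miR-322, -0.95 for miR-195, -0.58 for miR-15b, -0.87 for miR-15a and -0.44 for miR-16, single arrays with no test. Without ST-HSC 1, miR-15a and miR-16 were called higher on the LT-HSC array (0.68 and 1.82). The neighbours were lower there too, with 4 of the 6 tested called lower than in ST-HSC and MPP and miR-450a-5p at 5.18 against 7.48 on ST-HSC 1.

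The LT-HSC array also carried the erythroid markers, all 3 of them well above background. MiR-451 read 11.15 there, against means of 7.44 in ST-HSC, 6.37 in MPP and 12.12 in MEP, miR-144 read 5.29 against 2.59, 1.62 and 9.25, and miR-486 read 6.34 against 2.92, 2.31 and 7.74. The same array had the stem cell markers miR-125b-5p and miR-99a at 9.55 and 8.47, far above the MEP means of 4.55 and 3.72. The part of the erythroid signal, or of the low summed signal of this array, in the low miR-322, miR-503 and neighbours was not tested.

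Of the 4 relatives that share all or part of the seed, 3 were on the array and 2 were tested. MiR-103 and miR-107, made from introns of pantothenate kinase genes, were well above background on all 16 arrays, ranged over 7.93 to 9.09 and 8.93 to 9.88, and were called in 0 of the 8 contrasts between populations. Of the 6 opposite arms of the members' hairpins, named with an asterisk, 5 were on the array and 1 was tested. MiR-15b\* averaged 5.99 ± 0.37 (SD, n = 3) in GMP, 5.35 ± 0.14 in CMP and 5.10 ± 0.36 in MEP, and read 3.12 to 4.76 on the 7 arrays of HSC subsets. It was lower in HSC subsets by a difference of -1.46 (adjusted p 8.59e-06) and higher in GMP than in the other populations by 1.49 (adjusted p 6.63e-05), the latter without overlap. Both take in the LT-HSC array, where miR-15b\* read 3.12 and was not well above background. Within slide 2 the difference of HSC subsets was -1.21, again with that array. There ST-HSC 1 read 4.76, against 5.21, 5.56 and 4.69 on CMP 3, GMP 3 and MEP 3. The main arm miR-15b was called in neither.

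As a description over the 16 arrays, which share slides and populations, miR-15a correlated with miR-16 at a Pearson r of 0.89 and miR-322 with miR-503 at 0.75. MiR-15b, which shares its chromosome 3 locus with 1 of the 2 copies of miR-16, correlated with miR-16 at -0.79 and with miR-195 at 0.94. MiR-195 and miR-16 were at -0.76. Of all tested miRs, the 3 most like miR-322 were miR-30b (0.92), miR-542-3p (0.92) and miR-542-5p (0.91), and the 3 most like miR-503 were miR-363 (0.95), miR-30e\* (0.92) and miR-340-3p (0.91). For miR-16 they were miR-93 (0.96), miR-17 (0.92) and miR-106a (0.92), for miR-15a miR-30e (0.95), miR-29b (0.94) and miR-142-3p (0.93), for miR-15b miR-195 (0.94), miR-872\* (0.90) and miR-330\* (0.85), and for miR-195 miR-15b (0.94), miR-203 (0.92) and miR-872\* (0.90). The patterns of miR-15a, miR-15b, miR-16 and miR-195 include the step between slide 3 and the rest, which for miR-15b was in its brighter probe only.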

How the data were processed

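RNA of 16 sorted samples was hybridised to one-colour Agilent arrays, and groups were taken from the sample labels. The deposited scanner files hold the intensity of each spot after background subtraction by Feature Extraction (version 9.5.3.1 on slide 1, read on another scanner model, and 10.2.1.3 on slides 2 and 3), not normalized between arrays. The authors also deposited log2 values, quantile-normalized with limma, which follow the rank of the median foreground and were used as an alternative.

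Control spots and outlier spots (62 member spots in all) were removed, the spots of a probe averaged, quantile normalization applied, a floor set at 3.07 units, and log2 taken. The floor was each array's 95th percentile of negative-control signal, at its median across arrays. That percentile was 30.6 and 44.3 units on CMP 1 and CMP 2 and 9.94 to 17.3 on the other arrays of slide 1. On slides 2 and 3 it was 1.53 to 3.35 units. The brightest probe passing the filter stood for its miR. Where a whole side failed detection a bound is given, with each failing array set to its dimmest detected signal, or to the probe's own value if higher. For the bound the other side was the plain mean of its arrays, not the mean of population means. One mean per population was fitted with limma 3.58.1 in R 4.3.3 (10 residual and 3.1 prior degrees of freedom), two-sided. The fit was also run on simulated data with independent noise and no slide effect, which cannot show how it handles slide differences. No member spot was saturated. The number of arrays limits the precision. Replicates are separate labelled samples, and p-values measure the spread between them. In ST-HSC, CMP, GMP and MEP that spread takes in differences between slides, since the main fit has no slide term.

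The members and lists were chosen with earlier results of these data known. Named were the members, their relatives and cluster neighbours, and for each member the 3 tested miRs of highest correlation with it. The alternatives covered scaling, background, floor, filters, probes, slides, replicate numbers and each array left out.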

Additional observations from a re-analysis of the deposited data

How the results depend on the processing

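The lower miR-195, miR-322 and miR-503 in MEP against the other populations kept their direction in all 33, 33 and 32 alternatives and were called in 31, 32 and 31. For HSC subsets against myeloid progenitors the number of members called, 5 with all arrays, was 3 with scaling on the 75th percentile of all probes, with a floor of 10 units or with no detection filter, 2 with no scaling, 1 with slide as a block, 0 within slide 2 and 1 without slide 3 (an alternative chosen after seeing the data), and 3 to 6 with an array left out. Signs turned with slide as a block for miR-15a (0.15), miR-16 (0.13) and miR-503 (0.31), within slide 2 for miR-16 (0.10) and miR-195 (-0.15), without slide 3 for miR-15a (0.13) and miR-195 (-0.15), without scaling for miR-322 (-0.35), and for miR-503 with scaling on the probes well above background everywhere (0.027) or without the LT-HSC array (0.29), its values with an array left out running from -0.70 to 0.29. MiR-15b was at -0.12 with slide as a block, -0.25 within slide 2 and -0.14 without slide 3. It was at -0.33 with the 75th percentile of all probes and -0.84 without scaling. It was called in none of these but was called higher without LT-HSC 1 or ST-HSC 1. The authors' values gave 3 members called higher and 2 lower. The ratio of miR-15b to miR-15a turned to -0.23 within slide 2 and -0.26 without slide 3, and that of miR-195 to miR-16 to -0.25 within slide 2, and it was 0.028, not past the threshold, without slide 3. Neither the ratio of miR-322 to miR-16 (0.66 and 0.83) nor that of miR-503 to miR-322 (-0.99 and -1.40) passed in those settings, and the latter also missed without scaling (-0.35). The ratio differences with an array left out ran from 2.40 to 2.95, -1.09 to -0.80, 1.06 to 1.42 and 2.70 to 3.48 for miR-322 to miR-16, miR-503 to miR-322, miR-15b to miR-15a and miR-195 to miR-16, and every one passed.

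For GMP against the other populations the members called, 2 with all arrays, were 4 with the 75th percentile of all probes (miR-15b then at 0.85, turned), 1 with no detection filter, with miRs well above background everywhere or on myeloid arrays only (also added later), 0 within slide 1 or slide 2, and 1 to 3 with an array left out. For MEP against the other populations they were 4, and 2 without scaling, 0 within slide 2 and 3 to 5 with an array left out, and with slide as a block miR-16 turned to -0.45 and was called. For GMP against MEP they were 3, and 2 with scaling on probes detected throughout, 6 with the 75th percentile of all probes, 5 with slide as a block and 3 to 5 with an array left out, 5 being the count without ST-HSC 1. For CMP against MEP they were 3, and 5, 6 and 3 to 5, 5 without ST-HSC 1. For CMP against GMP the 1 call became 0 with the 75th percentile of all probes or no scaling and 0 to 1 with an array left out. For LT-HSC against the other HSC subsets miR-15a turned to -0.91 and was called with slide as a block. For these last comparisons the cause was not tested.

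Scaling moved the median of all tested miRs by -0.66 to 0.33 for HSC subsets against myeloid progenitors, -0.48 to 0.66 for GMP and -0.13 to 0.35 for MEP against the other populations, -0.43 to 0.65 for GMP against MEP, -0.18 to 0.13 for CMP against GMP, -0.42 to 0.43 for CMP against MEP, -0.41 to 0.24 for ST-HSC against MPP and -1.48 to 0.88 for LT-HSC. Calls that were higher made up 52.6% with quantile normalization and 19.5% to 75.4% with other scalings for HSC subsets against myeloid progenitors, 60.5% and 30.4% to 85.1% for GMP, 65.1% and 46.6% to 73.5% for GMP against MEP, 61.1% and 0% to 65.6% for CMP against GMP, 68.0% and 52.2% to 69.8% for CMP against MEP, 27.3% and 15.8% to 42.9% for ST-HSC against MPP and 27.5% and 0% to 69.9% for LT-HSC.

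Replicate numbers did not pair the arrays, since 6 array titles carry none. Deviations of same-numbered arrays correlated at -0.37 to 0.63 over 30 pairs. Among CMP, GMP and MEP the 9 same-number pairs, all on a shared slide, correlated at 0.23 to 0.63, and the 6 pairs of other numbers on a shared slide at 0.30 to 0.45. With a replicate block over all arrays, which crosses slides, no call of a member changed. On myeloid arrays only it gave 5, 1 and 4 calls for GMP against MEP, CMP against GMP and CMP against MEP, and 4, 1 and 4 without the block (added after seeing the data).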
